A study of Mus musculus with 12 samples.

Results

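The aryl hydrocarbon receptor gene Ahr, its partner Arnt, its repressor Ahrr and 5 of its classical target genes, Cyp1a1, Cyp1b1, Tiparp, Nqo1 and Aldh3a1, were followed across CT26 cells and CT26 tumors with and without midostaurin. The 8 genes were chosen by name, and all 8 were listed among the 55335 genes of both count tables. CT26 is a mouse colorectal cancer line, and midostaurin is a kinase inhibitor whose known targets include FLT3 and protein kinase C. RNA-seq was available for 4 groups of 3 libraries: subcutaneous CT26 tumors given midostaurin at 40 mg/kg from day 7 after inoculation for 2 weeks, such tumors given vehicle, CT26 cells given 1 µM midostaurin for 48 h, and CT26 cells given the solvent DMSO. The cell samples are labelled wild type, all 4 groups derive from the 1 parental line, and the strain and age of the mice are not stated in the labels. The labels do not state that replicates are separate cultures or mice. P-values therefore measure only the spread between these samples, which may be technical.

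The receptor is a transcription factor of the bHLH-PAS family that waits in the cytoplasm bound to HSP90 and cochaperones. Ligands such as dioxins, polycyclic hydrocarbons, dietary indoles and the tryptophan metabolite kynurenine send it to the nucleus, where it pairs with ARNT and binds DNA at response elements built around the core GCGTG. Its targets encode enzymes that oxidise and conjugate foreign compounds, and also its own brakes, AHRR and TIPARP. In the gut and in tumors it is known as a sensor of diet, microbes and tryptophan breakdown, both in epithelial and in immune cells.

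The promoters of the genes that serve as direct readouts of the receptor show where that core lies. The RefSeq promoter table (GRCm38.p6, the same assembly as mm10) held 6 of the 8 genes, all but Ahr and Aldh3a1. Each window had 250 bases before and 50 bases after the start. The starts are those the table uses, and that of Cyp1a1 lies inside the gene as annotated below, downstream of the gene's first base. Both strands were searched for GCGTG, which is CACGC on the strand shown when it lies on the other one. The sequences below run 5′ to 3′ along the gene, with each match in capitals, for Tiparp (chr3:65528197-65528496, plus strand), Cyp1a1 (chr9:57697363-57697662, plus strand), Cyp1b1 (chr17:79715012-79715311, minus strand) and Ahrr (chr13:74292282-74292581, minus strand).
Tiparp: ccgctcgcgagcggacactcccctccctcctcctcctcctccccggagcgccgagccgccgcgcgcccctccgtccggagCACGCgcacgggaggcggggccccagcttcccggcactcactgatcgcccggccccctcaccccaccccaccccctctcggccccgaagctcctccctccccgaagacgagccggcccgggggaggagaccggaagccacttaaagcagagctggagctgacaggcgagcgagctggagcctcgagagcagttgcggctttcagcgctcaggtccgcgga
Cyp1a1: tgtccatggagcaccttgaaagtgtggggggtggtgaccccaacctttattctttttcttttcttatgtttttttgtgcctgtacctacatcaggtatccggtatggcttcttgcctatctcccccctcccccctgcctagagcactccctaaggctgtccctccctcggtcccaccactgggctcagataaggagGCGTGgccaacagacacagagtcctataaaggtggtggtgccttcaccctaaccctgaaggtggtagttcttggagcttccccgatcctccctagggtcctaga
Cyp1b1: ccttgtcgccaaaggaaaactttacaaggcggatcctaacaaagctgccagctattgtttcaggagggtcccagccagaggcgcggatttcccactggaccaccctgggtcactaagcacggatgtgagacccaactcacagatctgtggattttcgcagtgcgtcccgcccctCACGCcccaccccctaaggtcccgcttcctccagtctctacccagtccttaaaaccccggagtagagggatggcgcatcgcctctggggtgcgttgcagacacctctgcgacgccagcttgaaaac
Ahrr: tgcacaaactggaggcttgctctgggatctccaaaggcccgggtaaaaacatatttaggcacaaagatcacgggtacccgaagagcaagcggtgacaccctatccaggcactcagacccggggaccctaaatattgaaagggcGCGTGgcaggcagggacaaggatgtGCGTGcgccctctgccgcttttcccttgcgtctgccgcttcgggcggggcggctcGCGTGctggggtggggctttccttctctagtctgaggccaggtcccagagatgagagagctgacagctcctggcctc
The match began 170 bases before the start in Tiparp, 54 in Cyp1a1 and 76 in Cyp1b1, on the opposite strand in Tiparp and Cyp1b1. Ahrr held 3 matches, which began 107, 82 and 27 bases before its start. Arnt held 1 match, 29 bases before its start, and the Nqo1 window held none. Of all 32851 promoters in the table, 32.4% held at least 1 match and 3.91% held 3 or more. The core TGACNNNGC of the antioxidant response element, the binding site of NRF2, had 2 matches in Arnt and none in the other 5 windows, against 12.4% of all promoters. These matches are letters in a window and do not show binding. Sequence outside the windows was not searched, so a window without a match does not show that the gene lacks the element.

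Total counts were 33399701 to 48109497 per tumor library and 34787389 to 38144039 per cell library. Levels are given as CPM, counts relative to each library's total, scaled by TMM over the 12 libraries. Both cell libraries numbered 1 stood apart from the other 4 cell libraries, and each midostaurin cell library lay nearest to the DMSO library of its own number. Among tumors, vehicle tumor 2 carried keratinocyte markers (Krt14 504.2 CPM, against at most 0.186 CPM in the other 5), and midostaurin tumor 3 carried neutrophil markers (690.6 CPM summed over 8 markers, against 15.0 to 38.8 CPM in the other 5). Of 11 colorectal epithelial markers, Cdx1 was at 0 in all 12 libraries and Epcam at 0 in all cell libraries, while Cdx2 measured 0.852 to 2.23 CPM, Krt18 22.7 to 29.6 CPM and 4 to 5 of the 11 were at 0 in each cell library. Krt20 measured 9.68 to 53.2 CPM in cells and 177.5 to 682.2 CPM in tumors.

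In tumors, 3 genes of the pathway, Ahr, Arnt and Aldh3a1, had higher levels in every midostaurin tumor than in any vehicle tumor, and Tiparp differed in the same direction with a slight overlap. No gene of the group passed the threshold of an adjusted p of 0.05 with edgeR's quasi-likelihood test. Of the 8 genes, 6 passed the low-count filter, 4 of them had an unadjusted p below 0.05 (against 19.9% of the 16094 genes tested), and 0 had an adjusted p below 0.05 (against 0.0435% of genes, 7 in number). DESeq2 called 4 of the 6 higher, Ahr, Arnt, Tiparp and Aldh3a1, against 5.43% of genes called higher and 8.99% called in either direction. Limma-voom called 0 of the 6, against 16 of the 16094 genes tested, the background also for its calls in the lists below. The median log2 fold change of the 6 tested genes was 1.27, and that of all genes tested was -0.01. Groups that do not overlap, with midostaurin higher, were found for 3 of the 6 and for 13.1% of genes (27.2% in either direction). In bulk tumor RNA, a change in the number of cells of a type cannot be told apart from a change in RNA per cell.

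**Figure D1:**
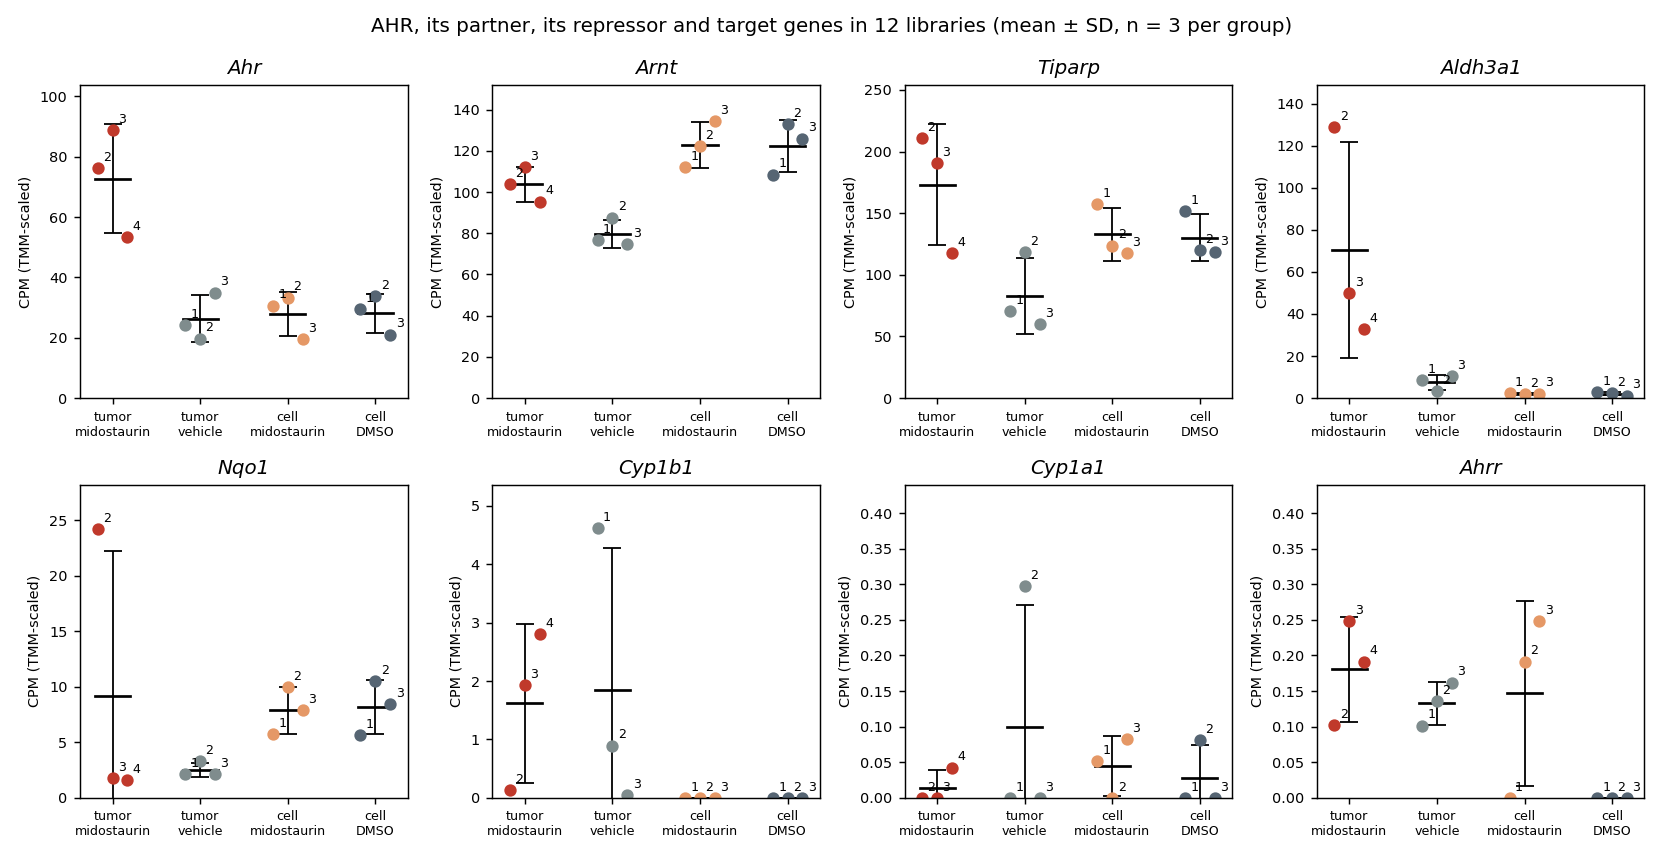
Each panel plots 1 gene's level in CPM on its own linear axis from 0, with a point for each library (numbered), a bar at the mean and whiskers of 1 SD, cut at 0, for 3 libraries per group. Ahr, Arnt and Aldh3a1 are higher in all 3 midostaurin tumors than in all 3 vehicle tumors, Nqo1 is high in midostaurin tumor 2 alone among tumors (24.2 CPM), and Cyp1b1 is at 0 in all 6 cell libraries.

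Ahr (ENSMUSG00000019256, mm10 chromosome 12, 35497974 to 35535038, minus strand), which encodes the receptor itself, measured 76.2, 88.7 and 53.2 CPM in midostaurin tumors 2, 3 and 4 and 24.2, 19.7 and 34.9 CPM in vehicle tumors 1, 2 and 3. The lowest midostaurin tumor lay above the highest vehicle tumor. The means were 72.7 ± 18.0 CPM and 26.3 ± 7.82 CPM (SD, n = 3 each), a log2 fold change of 1.47 ± 0.26 (SE) with a 95% interval of 0.85 to 2.09, or 2.77-fold. The adjusted p was 0.0841 with edgeR and 1.52e-06 with DESeq2. Without vehicle tumor 1 the log2 fold change was 1.42 (edgeR adjusted p = 0.249), and over all 6 fits with a tumor left out it stayed between 1.31 and 1.74. Of all genes tested, 1.27% had a higher log2 fold change. A predicted gene on the opposite strand, Gm48236, overlaps Ahr and had at most 2 counts in any library.

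Arnt (ENSMUSG00000015522, chromosome 3, 95434388 to 95497240, plus strand), the obligate partner of the receptor and also of the hypoxia factors, measured 103.8, 112.1 and 95.3 CPM in midostaurin tumors and 76.8, 87.7 and 74.9 CPM in vehicle tumors. The groups did not overlap, though the step between them was much smaller than for Ahr. The log2 fold change was 0.38 ± 0.10 (SE), with a 95% interval of 0.16 to 0.61 (adjusted p = 0.115 with edgeR and 0.013 with DESeq2). It was 0.37 without vehicle tumor 1 (edgeR adjusted p = 0.287) and 0.34 to 0.46 over the fits with a tumor left out. Gm42672, which overlaps Arnt on the same strand, had at most 2 counts in tumors and at most 14 in cells.

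Ahrr (ENSMUSG00000021575, chromosome 13, 74211118 to 74292331, minus strand) encodes the repressor that competes with the receptor for ARNT and is itself a target of the receptor. It was barely detected, with 4, 8 and 9 counts in midostaurin tumors and 4, 5 and 7 counts in vehicle tumors. These counts overlap, and the gene did not pass the low-count filter (unadjusted p = 0.505 in the edgeR fit with no filter).

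Tiparp (ENSMUSG00000034640, chromosome 3, 65528410 to 65555518, plus strand), which encodes an ADP-ribosyltransferase that is induced by the receptor and dampens it, measured 211.0, 190.9 and 117.4 CPM in midostaurin tumors and 70.8, 118.1 and 60.1 CPM in vehicle tumors. The groups overlapped slightly, because midostaurin tumor 4 lay just below vehicle tumor 2. The log2 fold change was 1.07 ± 0.31 (SE), with a 95% interval of 0.34 to 1.80, or 2.10-fold (adjusted p = 0.14 with edgeR and 0.0047 with DESeq2). It was 0.97 without vehicle tumor 1 (edgeR adjusted p = 0.334) and 0.89 to 1.42 over the fits with a tumor left out, the highest without vehicle tumor 2. The overlapping antisense gene 4931440P22Rik had 44 to 102 counts in tumors, and the strand setting of the counting is not given in the sources used here.

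Aldh3a1 (ENSMUSG00000019102, chromosome 11, 61207537 to 61218421, plus strand), an aldehyde dehydrogenase of the receptor's gene battery that is prominent in cornea and stomach, measured 129.1, 49.8 and 32.8 CPM in midostaurin tumors and 8.65, 3.25 and 10.3 CPM in vehicle tumors. The lowest midostaurin tumor lay well above the highest vehicle tumor, and the midostaurin tumors also differed widely among themselves. The means were 70.6 ± 51.4 CPM and 7.41 ± 3.71 CPM (SD, n = 3 each), a log2 fold change of 3.26 ± 0.64 (SE) with a 95% interval of 1.74 to 4.77, or 9.55-fold. The adjusted p was 0.0874 with edgeR and 0.000549 with DESeq2, and 0.205% of genes had a higher log2 fold change. It was 3.39 without vehicle tumor 1 (edgeR adjusted p = 0.262). The lowest value over the fits with a tumor left out was 2.47, without midostaurin tumor 2.

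Nqo1 (ENSMUSG00000003849, chromosome 8, 107388225 to 107403206, minus strand), a quinone reductase driven both by the receptor and by NRF2, measured 24.2, 1.77 and 1.57 CPM in midostaurin tumors and 2.16, 3.28 and 2.15 CPM in vehicle tumors. Midostaurin tumor 2 alone was high, and the other midostaurin tumors lay below all 3 vehicle tumors. The log2 fold change was 1.88 ± 1.05 (SE, edgeR adjusted p = 0.366), and without midostaurin tumor 2 it was -0.60 (edgeR adjusted p = 0.399). Without vehicle tumor 1 it was 1.79 (edgeR adjusted p = 0.576), and DESeq2 gave no adjusted p. In midostaurin tumor 2 the level was 7.40 times that of the next highest tumor, and by this ratio, taken after adding 0.5 CPM, Nqo1 ranked 1 among the 16094 genes tested.

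Cyp1b1 (ENSMUSG00000024087, chromosome 17, 79701537 to 79715061, minus strand), a cytochrome P450 that metabolises steroids and hydrocarbons and is found in mesenchymal tissues, measured 0.127, 1.93 and 2.81 CPM in midostaurin tumors and 4.62, 0.893 and 0.0463 CPM in vehicle tumors. These levels rest on 5, 62 and 132 counts in midostaurin tumors and on 182, 33 and 2 counts in vehicle tumors. Both groups held a tumor close to 0, and vehicle tumor 1 was the highest of the 6. The log2 fold change was -0.18 ± 1.36 (SE, edgeR adjusted p = 0.959), and without vehicle tumor 1 its sign turned, at 1.81 (edgeR adjusted p = 0.604). It also turned without midostaurin tumor 2, at 0.36.

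Vehicle tumor 1, the tumor with the highest Cyp1b1, also had the highest summed level of 8 fibroblast markers. That sum was 1489, 1812 and 2293 CPM in midostaurin tumors 2, 3 and 4 and 3343, 1787 and 1589 CPM in vehicle tumors 1, 2 and 3, with none of the 8 at 0 in any tumor. The list is not particular to fibroblasts here. In cultured CT26 cells it summed to 820.9 to 1543 CPM, most of it Col1a2 at 731.8 to 1261 CPM. Its members also differed: Col1a1, Col1a2, Dpt, Postn and Thy1 were highest in vehicle tumor 1, but Dcn, Lum and Pdgfra in midostaurin tumor 3. The sum of 8 pericyte and smooth muscle markers was 75.6, 105.2 and 99.8 CPM in midostaurin tumors and 140.8, 74.7 and 88.2 CPM in vehicle tumors. The part of these cells in the Cyp1b1 levels was not tested.

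Cyp1a1 (ENSMUSG00000032315, chromosome 9, 57687928 to 57703824, plus strand), the cytochrome P450 whose induction is the usual sign of ligand-bound receptor, was near 0 throughout. It had 0, 0 and 2 counts in midostaurin tumors and 0, 11 and 0 counts in vehicle tumors. The 11 counts, or 0.298 CPM, came from vehicle tumor 2, the tumor with keratinocyte markers and the lowest Aldh3a1. A library with no count allows a level of up to 0.0694 to 0.0931 CPM in tumors (3 counts, counting error only). The gene did not pass the low-count filter (unadjusted p = 0.263 in the edgeR fit with no filter), and a difference between the groups was not detectable at this depth.

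**Figure D2:**
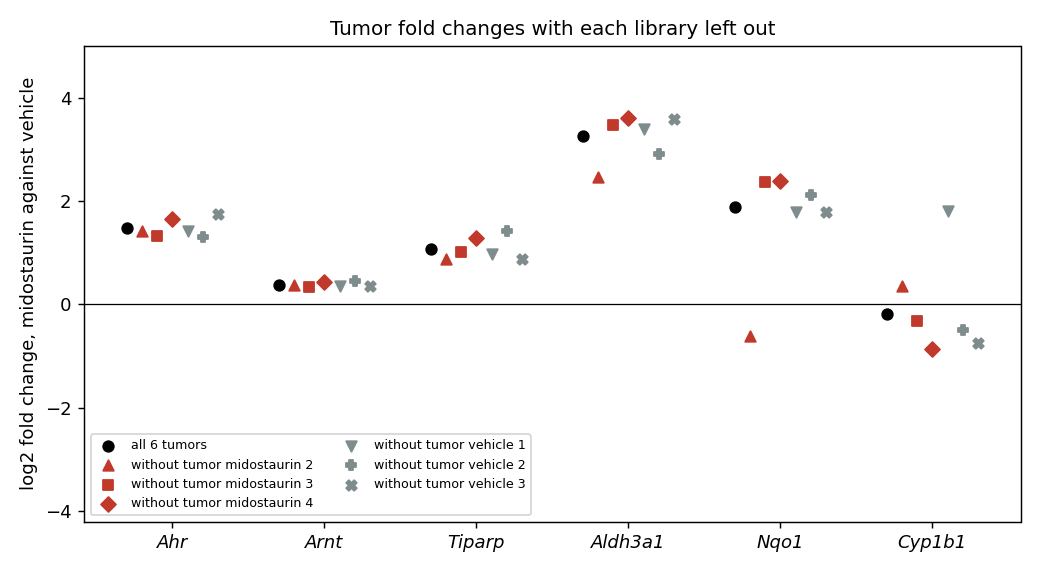
The y axis gives the log2 fold change of midostaurin over vehicle tumors from edgeR for the 6 tested genes, fitted on all 6 tumors (black) and with each midostaurin (red) or vehicle (grey) tumor left out in turn. Ahr, Arnt, Tiparp and Aldh3a1 stay above 0 in every fit, Nqo1 drops to -0.60 without midostaurin tumor 2, and Cyp1b1 reaches 1.81 without vehicle tumor 1.

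In CT26 cells, no gene of the pathway passed the test. Of the 14538 genes tested in cells, edgeR called 0 (0.0%), 75 (0.516%) had an unadjusted p below 0.05, and DESeq2 called 2 (0.0138%). Of the 8 genes, 5 passed the low-count filter in cells, and their log2 fold changes lay between -0.06 and 0.03, each with an edgeR adjusted p of 1.0. None of the 5 had an unadjusted p below 0.05. Ahr measured 30.6, 33.3 and 19.6 CPM in midostaurin cells 1, 2 and 3 and 29.3, 33.8 and 21.0 CPM in DMSO cells 1, 2 and 3. Aldh3a1 measured 2.40, 1.91 and 2.13 CPM in midostaurin cells and 2.73, 2.45 and 1.11 CPM in DMSO cells. For all 5 tested genes the groups overlapped, as they did for all but 2.46% of the genes tested in cells.

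The other tested genes were as close in cells. Tiparp measured 157.2, 123.7 and 117.4 CPM in midostaurin cells and 151.8, 120.1 and 118.2 CPM in DMSO cells. Arnt measured 112.0, 122.2 and 134.4 CPM in midostaurin cells and 108.5, 133.0 and 126.0 CPM in DMSO cells. Nqo1 measured 5.73, 9.95 and 7.91 CPM in midostaurin cells and 5.67, 10.5 and 8.40 CPM in DMSO cells. The levels followed the library number more than the treatment, most plainly for Ahr, lowest in both libraries numbered 3, and Nqo1, lowest in both libraries numbered 1.

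With the library number as a block, which the same-numbered libraries allow, the intervals of the 5 genes in cells became narrow and none of the 5 was called. The 95% interval of the log2 fold change was -0.15 to 0.12 for Ahr, -0.09 to 0.10 for Arnt and -0.04 to 0.10 for Tiparp. It was -0.30 to 0.19 for Nqo1 and -0.50 to 0.69 for Aldh3a1, the widest of the 5. The midostaurin level of Aldh3a1 was 0.879, 0.782 and 1.92 times the DMSO level in the same-numbered pairs 1, 2 and 3. The edgeR adjusted p with the block was at least 0.992 for each of the 5. Of the 14538 genes tested in cells, 629 had an unadjusted p below 0.05 with the block, against 75 without it. Without both cell libraries numbered 1, the log2 fold changes lay between -0.08 and 0.18.

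The remaining 3 genes were too low to test in cells. Cyp1b1 had 0 counts in all 6 cell libraries. Cyp1a1 had 2, 0 and 3 counts in midostaurin cells and 0, 3 and 0 counts in DMSO cells. Ahrr had 0, 7 and 9 counts in midostaurin cells and 0 counts in each DMSO library, so the cells numbered 2 and 3 showed the gene with the drug and those numbered 1 did not (unadjusted p = 0.0547 and adjusted p = 1.0 in the edgeR fit with no filter).

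**Figure D3:**
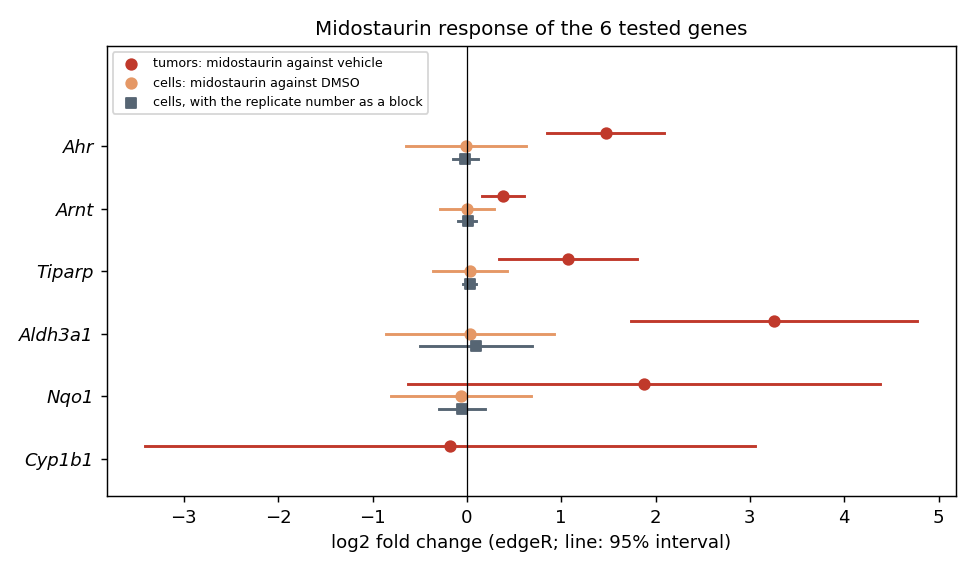
Points give the edgeR log2 fold change of midostaurin over vehicle in tumors (red), of midostaurin over DMSO in cells (orange) and of midostaurin over DMSO in cells with the library number as a block (grey squares), with lines for the 95% interval. In tumors the intervals of Ahr, Arnt, Tiparp and Aldh3a1 lie above 0, while all cell intervals include 0 and Cyp1b1 was tested in tumors alone.

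The difference between the tumor and cell responses was fitted as an interaction term over all 12 libraries, in which 1 of 16965 genes (0.00589%) passed. None of the group's genes did, and the difference in log2 fold change, tumor minus cell, was 1.48 ± 0.40 (SE) for Ahr (edgeR adjusted p = 0.539). For Aldh3a1 it was 3.22 ± 0.79 (SE), with an adjusted p of 0.457 with edgeR and 0.00819 with DESeq2. The difference was 1.03 for Tiparp, 0.37 for Arnt and 1.92 for Nqo1, with edgeR adjusted p of 0.725, 0.779 and 0.889. Ahr, Arnt, Tiparp and Aldh3a1 had an unadjusted p below 0.05, against 6.08% of genes. This fit did not pair the cell libraries. With their library number as a block, none of the group's genes passed either. The edgeR adjusted p was then 0.107 for Ahr, 0.206 for Arnt, 0.245 for Tiparp, 0.526 for Nqo1 and 0.158 for Aldh3a1.

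Without the drug, 3 of the 6 tested genes were called between vehicle tumors and DMSO cells, near the share of all genes. Between vehicle tumors and DMSO cells, 44.2% of the 16965 genes tested passed with edgeR, 24.5% higher and 19.7% lower in vehicle tumors, and the contrast shares its vehicle tumors with the tumor comparison above. Tissue, growth in a mouse and experiment cannot be told apart in this contrast. Of the 6 genes of the group tested, Aldh3a1 and Cyp1b1 were called higher and Arnt lower in vehicle tumors.

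Arnt measured 79.8 ± 6.87 CPM in vehicle tumors and 122.5 ± 12.6 CPM in DMSO cells (SD, n = 3 each), and fell by 0.62 ± 0.11 on the log2 scale (SE, edgeR adjusted p = 0.00124). Aldh3a1 measured 7.41 ± 3.71 CPM in vehicle tumors and 2.10 ± 0.866 CPM in DMSO cells, a log2 fold change of 1.82 ± 0.57 (SE, edgeR adjusted p = 0.0237). That call was lost with limma-voom (adjusted p = 0.139) and without vehicle tumor 1 (0.0645), vehicle tumor 3 (0.0798), DMSO cells 2 (0.0539) or DMSO cells 3 (0.085). Cyp1b1 averaged 1.85 CPM in vehicle tumors and 0 CPM in DMSO cells, at least 22.9-fold higher when the cells are set at a floor of 3 counts per library (edgeR adjusted p = 0.0363). Without vehicle tumor 1 the mean was 0.470 CPM and the bound 5.80-fold, and vehicle tumor 3, with 2 counts, lay below the floor itself. The Cyp1b1 call was lost without vehicle tumor 1 or 2, without midostaurin tumor 3 or 4, without any 1 of the 3 DMSO libraries, and without both cell libraries numbered 1 (edgeR adjusted p = 0.0508 to 0.0865). It was also lost with limma-voom (adjusted p = 0.144). Ahrr, below the low-count filter, had 4, 5 and 7 counts in vehicle tumors and 0 in each DMSO library, and passed in the edgeR fit with no filter (adjusted p = 0.0352).

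Ahr showed a log2 fold change of -0.10 ± 0.28 (SE) between vehicle tumors and DMSO cells (edgeR adjusted p = 0.808), with a 95% interval of -0.72 to 0.53. Tiparp showed -0.65 ± 0.27 (edgeR adjusted p = 0.0763), and its adjusted p was 0.0126 without vehicle tumor 2. Nqo1 showed -1.70 ± 0.87 (edgeR adjusted p = 0.138), and its adjusted p was 0.00183 without midostaurin tumor 2, whose spread enters the shared fit. For Tiparp and Nqo1 all 3 vehicle tumors lay below all 3 DMSO libraries, as did those of 24.7% of genes, while the groups did not overlap in 54.8% of genes in either direction.

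Per kilobase of exon, Tiparp was the most abundant gene of the group in all 4 groups. In midostaurin tumors, Tiparp at 39.7 ± 11.3 and Aldh3a1 at 36.3 ± 26.5 CPM per kb did not differ beyond their spread, and Arnt at 12.95 ± 1.04 and Ahr at 11.8 ± 2.92 CPM per kb came next. In vehicle tumors, Tiparp at 19.0 ± 7.08 CPM per kb was followed by Arnt at 9.97 ± 0.858, while Ahr at 4.26 ± 1.27 and Aldh3a1 at 3.82 ± 1.91 CPM per kb did not differ beyond their spread. In midostaurin cells and DMSO cells alike, Tiparp (30.5 and 29.8 CPM per kb) was followed by Arnt (15.3 in both) and then by Nqo1 (5.06 and 5.28) and Ahr (4.52 and 4.55). Aldh3a1 was low in both cell groups, at 1.11 and 1.08 CPM per kb. Cyp1b1, Ahrr and Cyp1a1 stayed at or below 0.317 CPM per kb in all 4 groups.

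Genes that hold or assist the receptor showed small differences in tumors. Of 10 genes of the receptor complex and its cofactors, all tested, edgeR and limma-voom called 0 (edgeR against 0.0435% of genes), 2 had an unadjusted p below 0.05 with edgeR (against 19.9% of genes), and DESeq2 called 2 higher (against 5.43% of genes), with a median log2 fold change of 0.09 beside -0.01 for all genes. Rb1, the retinoblastoma protein that binds the receptor, measured 36.7, 41.9 and 37.3 CPM in midostaurin tumors and 25.1, 23.8 and 28.4 CPM in vehicle tumors. Its log2 fold change was 0.59 ± 0.10 (edgeR adjusted p = 0.0841). Src, a kinase found in the cytoplasmic complex, had a log2 fold change of 0.28 ± 0.08 (edgeR adjusted p = 0.13). In both genes, 2 of the 10, the tumor groups did not overlap, with midostaurin higher, against 13.1% of genes.

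Among 16 other genes of the bHLH-PAS family, 11 were tested in tumors, edgeR and limma-voom called 0, 3 had an unadjusted p below 0.05 with edgeR (against 19.9% of genes), and DESeq2 called 2 higher and 1 lower (against 8.99% of genes called in either direction). Arntl, the clock partner of CLOCK, measured 53.5, 93.4 and 66.5 CPM in midostaurin tumors and 32.8, 37.1 and 41.9 CPM in vehicle tumors, a log2 fold change of 0.94 ± 0.20 (edgeR adjusted p = 0.0974). Clock itself had a log2 fold change of 0.48 ± 0.11 (edgeR adjusted p = 0.0974). Per2, which represses that pair, measured 34.9, 14.6 and 23.9 CPM in midostaurin tumors and 42.9, 53.8 and 43.0 CPM in vehicle tumors, a log2 fold change of -0.92 ± 0.30 (edgeR adjusted p = 0.169). In each of these 3 genes the tumor groups did not overlap, as in 27.2% of genes.

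Of 20 further genes reported as targets of the receptor, 17 were tested in tumors, 15 had a log2 fold change above 0 (against 7711 of all 16094 genes), and the median was 0.51 beside -0.01 for all genes. EdgeR and limma-voom called 0, 8 had an unadjusted p below 0.05 with edgeR (against 19.9% of genes), and DESeq2 called 4 higher (against 5.43% of genes). Xdh, which encodes xanthine dehydrogenase, measured 623.6, 582.2 and 399.8 CPM in midostaurin tumors and 248.0, 284.6 and 255.7 CPM in vehicle tumors, a log2 fold change of 1.03 ± 0.17 (edgeR adjusted p = 0.0841). Nfe2l2, the gene of NRF2, measured 284.6, 244.6 and 193.5 CPM in midostaurin tumors and 124.7, 139.5 and 147.1 CPM in vehicle tumors, a log2 fold change of 0.82 ± 0.15 (edgeR adjusted p = 0.0848). For both, every midostaurin tumor lay above every vehicle tumor. The groups lay apart, higher in 5 of the 17 (against 13.1% of genes) and lower in 1 (against 27.2% of genes in either direction).

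Further targets on this list had log2 fold changes in both directions. Ugt1a6b, a glucuronidation enzyme, measured 4.96, 2.98 and 1.70 CPM in midostaurin tumors and 0.863, 0.758 and 0.717 CPM in vehicle tumors, and its share of reads is uncertain because Ugt1a genes have common exons. Its log2 fold change was 2.05 ± 0.42 (edgeR adjusted p = 0.0936). Ereg, a ligand of the EGF receptor, had 0.90 ± 0.30 (edgeR adjusted p = 0.177), and Abcg2, a drug efflux pump, had -1.26 ± 0.46 (edgeR adjusted p = 0.197), both with overlapping groups.

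The enzymes that make tryptophan-derived ligands went both ways, with a median log2 fold change of 0.01 over the 10 of 13 tested in tumors, 0 called by edgeR or limma-voom, 4 with an unadjusted p below 0.05 with edgeR (against 19.9% of genes), and 2 called higher by DESeq2 (against 5.43% of genes). Ido1, which opens the kynurenine route, measured 9.31, 4.10 and 6.93 CPM in midostaurin tumors and 1.90, 2.27 and 2.06 CPM in vehicle tumors. Ido2, its paralog, measured 46.5, 33.6 and 19.6 CPM in midostaurin tumors and 14.5, 14.2 and 11.3 CPM in vehicle tumors, a log2 fold change of 1.33 ± 0.30 (edgeR adjusted p = 0.103). Neither gene's groups overlapped. Kyat3 and Kyat1, aminotransferases that turn kynurenine into kynurenic acid, had log2 fold changes of -2.16 ± 0.57 and -0.71 ± 0.28 (edgeR adjusted p = 0.119 and 0.229), with every midostaurin tumor below every vehicle tumor. Kyat3 lay near the floor, at 0.0763, 0.249 and 0.106 CPM in midostaurin tumors and 0.863, 0.379 and 0.671 CPM in vehicle tumors. DESeq2 gave Kyat3 no adjusted p. The groups lay apart, higher in 2 and lower in 2 of the 10, against 27.2% of genes in either direction.

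The other targets of NRF2 were set beside Nqo1 because that gene answers to both factors. All 21 were tested in tumors, and edgeR, DESeq2 and limma-voom called 0 (edgeR against 0.0435% and DESeq2 against 8.99% of genes). With edgeR, 0 had an unadjusted p below 0.05 (against 19.9% of genes). The median log2 fold change was 0.08. Of the 21, 15 were highest in midostaurin tumor 2, against 15.9% of all genes tested, 8 of the 17 further targets of the receptor and 3 of the 6 tested genes of the group. Gclc, a subunit of the enzyme that starts glutathione synthesis and a gene chosen after its values were seen, measured 160.0, 76.6 and 74.6 CPM in midostaurin tumors and 77.3, 75.4 and 65.6 CPM in vehicle tumors. Ftl1, the ferritin light chain, measured 3053, 1812 and 2060 CPM in midostaurin tumors and 1915, 1730 and 1508 CPM in vehicle tumors. In both genes midostaurin tumor 2 was the highest and the groups overlapped.

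**Figure D4:**
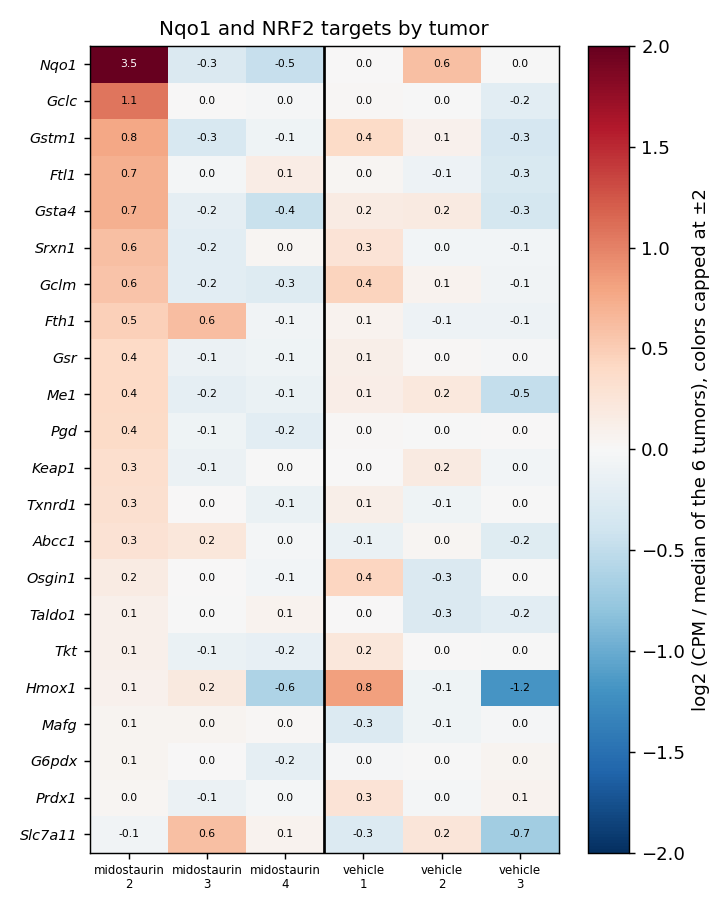
Colors and numbers give the log2 ratio of each gene's CPM to its median over the 6 tumors, for Nqo1 and 21 other NRF2 targets (rows), with midostaurin tumors left and vehicle tumors right of the line. Midostaurin tumor 2 has the highest value in 15 of the 21 rows besides Nqo1, with log2 ratios of 3.49 for Nqo1 and 1.07 for Gclc, while midostaurin tumors 3 and 4 lie at -0.28 and -0.45 for Nqo1.

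Of 20 other aldehyde dehydrogenases, 14 were tested in tumors, edgeR and limma-voom called 0, and 3 had an unadjusted p below 0.05 (against 19.9% of genes). DESeq2 called 1 lower (against 8.99% of genes called in either direction). Of the 14, 9 had a log2 fold change below 0 (against 8383 of all 16094 genes), and the median was -0.19. These shares lay near those of all genes. Aldh3b1, which acts on lipid aldehydes, measured 9.29, 9.69 and 8.72 CPM in midostaurin tumors and 20.0, 15.1 and 13.5 CPM in vehicle tumors, a log2 fold change of -0.80 ± 0.17 (edgeR adjusted p = 0.0936). Aldh3a2, the fatty aldehyde dehydrogenase of the same subfamily as Aldh3a1, had 0.22 ± 0.12 (edgeR adjusted p = 0.351). Aldh16a1 and Aldh18a1 had -0.27 ± 0.09 and -0.47 ± 0.19 (edgeR adjusted p = 0.162 and 0.237).

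In cells, 10, 10, 13, 3, 21 and 13 genes of these 6 lists were tested, in the order given above. None of them was called by edgeR, with or without the library number as a block (against 8 and 0 of all 14538 genes). Only 1 of them, a tryptophan enzyme, had an unadjusted p below 0.05 without the block (against 0.516% of genes). The lists' median log2 fold changes in cells lay between -0.06 and 0.01. Leaving vehicle tumor 1 out of the tumor comparison moved the medians to 0.10 for the receptor complex, 0.30 for the bHLH-PAS family, 0.52 for the further targets, 0.15 for the tryptophan enzymes, 0.20 for the NRF2 targets and -0.14 for the aldehyde dehydrogenases, beside 1.61 for the 6 tested genes of the group and 0.01 for all genes. The median of the 6 rose because Cyp1b1, with few counts, went from -0.18 to 1.81. Aldh3a1 rose from 3.26 to 3.39, while the log2 fold changes of Ahr, Arnt, Tiparp and Nqo1 fell slightly.

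Some marker sums also separated the tumor groups. The sum of 10 macrophage markers, none at 0 in any tumor, was 574.2 to 1358 CPM in midostaurin tumors and 1421 to 2469 CPM in vehicle tumors. The sum of the 11 colorectal epithelial markers, nearly all of it Krt20, was 434.5 to 694.3 CPM in midostaurin tumors and 185.7 to 399.2 CPM in vehicle tumors, with 2 to 4 of the 11 at 0 in each tumor. The list did not move as a whole. Of its 7 tested markers, 3 had a log2 fold change above 0 and 4 below. Cdx2 went against Krt20, at 0.585, 0.311 and 0.510 CPM in midostaurin tumors and 2.00, 0.812 and 1.39 CPM in vehicle tumors. Keratinocyte markers summed to 3.46 to 4.21 CPM in midostaurin tumors and to 3.81, 822.1 and 6.11 CPM in vehicle tumors. The part of macrophages, of keratinocytes and of the cells that express Krt20 in the levels of Ahr, Tiparp and Aldh3a1 was not tested.

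Genes whose levels ran most alike were sought over the 6 tumors for Aldh3a1, Tiparp and Cyp1b1, by Pearson's r of log2(CPM + 0.5) among 10393 genes with a mean of at least 5 CPM. The tumors share their libraries and the best of so many genes are high by selection, so the values are a description. Closest to Aldh3a1 were Eml1 (r = 0.994) and Zfp955b (r = 0.994), followed by Caprin1 and Fam172a. Eml1 measured 166.5, 137.3 and 126.7 CPM in midostaurin tumors and 95.9, 87.9 and 102.1 CPM in vehicle tumors. Among the genes closest to Tiparp were Rbm12b2 (r = 0.993), Kctd10 and Rbm7. Closest to Cyp1b1 were Opa1 (r = 0.994), Col5a2 (r = 0.994), Meg3 (r = 0.990) and Loxl1 (r = 0.983). A high r does not need a large difference. Opa1 lay between 56.9 and 62.9 CPM over the 6 tumors, and Caprin1 between 476.2 and 519.0 CPM. Col5a2, a fibrillar collagen, measured 12.6, 48.9 and 56.9 CPM in midostaurin tumors and 94.95, 22.0 and 10.9 CPM in vehicle tumors, and Loxl1, which crosslinks elastin, was likewise highest in vehicle tumor 1, at 29.7 CPM.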

How the data were processed

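RNA-seq libraries of tumors and cells were prepared with a directional poly(A) kit, per the labels' protocols. The submitters' processing notes name FastQC 0.11.2, Bowtie2 2.3.4, RSEM and the mm10 genome. The authors deposited whole-number counts per Ensembl gene, in 1 table for tumors and 1 for cells, and RSEM estimates may have been rounded before deposit. RSEM assigns reads that match several genes by estimation. The gene annotation and the strand setting of the counting are not given in the sources used here. The tumor table numbers its midostaurin columns 2, 3 and 4, while the labels run from 1 to 3. Columns 2 and 3 were matched by number, and column 4 entered as a midostaurin tumor with no numbered label.

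Symbols and positions came from GENCODE M21, and 181 identifiers had no symbol. Counts were tested in R 4.3.3 with edgeR 4.0.16: filterByExpr, TMM, the quasi-likelihood F-test and Benjamini-Hochberg adjustment over all genes tested, with a threshold of 0.05. Tumors and cells were fitted separately, and tumors against cells and the interaction in 1 fit over 12 libraries. DESeq2 1.42.0, limma-voom (limma 3.58.1), other scalings, no filter, a replicate block, a joint fit and leaving out each library were alternatives. CPM were computed here from the deposited counts. In cells, the deviations of same-numbered libraries from their group means correlated at 0.902, 0.719 and 0.702. The data thus pair midostaurin with DMSO cells by number, which the labels do not state. The main cell fit and the main interaction fit left this pairing out, and the block was an alternative. In tumors these deviations correlated at 0.153 and -0.187 for numbers 2 and 3 and do not pair the tumors.

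The 8 genes, the 6 pathway lists, the marker lists and the tests were chosen with earlier results of these data known. The text names the 8 genes, up to 5 genes per list with the smallest tumor p, and the 4 genes most alike in pattern to Aldh3a1, Tiparp and Cyp1b1, of which 1 is not reported here. With 3 against 3 libraries, a two-sided exact permutation test cannot give a p below 0.1, so the fits across genes were used. Floors and intervals cover counting error only where they rest on counts.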

Additional observations from a re-analysis of the deposited data

How the results depend on the processing

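In tumors, 0 of the 6 tested genes passed under every alternative except DESeq2, which called 4. The log2 fold changes of Ahr, Arnt, Tiparp and Aldh3a1 kept their sign under all 14 alternatives. The number of tumor genes called, 7 with edgeR, was 1447 with DESeq2, 16 with limma-voom, 0 with no filter on low counts, 0 with the replicate block, and 0 to 1 with a tumor left out. Cyp1b1 turned positive with limma-voom (0.64) and with the replicate block (0.96), and lay between -0.86 and 1.81 with a tumor left out. Nqo1 lay between -0.60 and 2.39 with a tumor left out, negative without midostaurin tumor 2. The numbers do not pair the tumors, so the block is only an alternative there.

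In cells, the number of genes called, 0 with edgeR, was 2 with DESeq2, 2 with limma-voom, 8 with the replicate block, 1 in the joint fit and 1 without both libraries numbered 1, an alternative chosen after seeing the data. The block changed no call among the 8 genes. With a cell library left out, the log2 fold change lay between -0.18 and 0.19 for Ahr, -0.0755 and 0.0677 for Arnt, -0.11 and 0.16 for Tiparp, -0.27 and 0.16 for Nqo1 and -0.27 and 0.27 for Aldh3a1, so the signs in cells are not determined. That of Arnt was -2e-04 with upper-quartile scaling and -0.0136 without both libraries numbered 1.

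Between vehicle tumors and DMSO cells, 3 genes of the group were called, 1 with limma-voom and 1 to 4 with a library left out. The log2 fold change of Ahr lay between -0.352 and 0.0771 with a library left out. For the interaction, 1 gene was called with edgeR, 99 with DESeq2, 16 with the replicate block, 0 without both cell libraries numbered 1 and 1 to 6 with a library left out, the most without midostaurin tumor 4. DESeq2 called 1 gene of the group, Aldh3a1. The interaction of Nqo1 lay between -0.54 and 2.42 with a library left out. The cause of these differences between tools was not tested. Depth limits Ahrr, Cyp1a1 and, in cells, Cyp1b1, where a few counts or none were seen per library.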
